A study of Mus musculus with 4 samples.

Results

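The genes described here are host genes of small nucleolar RNAs (snoRNAs) whose own spliced RNA is mostly annotated as non-coding. They were taken by symbol: Zfas1, Gas5, Epb41l4aos, and every gene named Snhg followed by a number. Of 37224 gene rows in the count tables, 10 carried such a symbol: Zfas1, Epb41l4aos, Gas5, Snhg3, Snhg9, Snhg11, Snhg12, Snhg15, Snhg17 and Snhg20. The annotation, GENCODE M21, names 17 such genes, and Snhg1, Snhg5, Snhg6, Snhg8, Snhg10, Snhg14 and Snhg18 were not analysed here as hosts. GENCODE M21 lists Snhg11 as protein-coding, against the family's name. All 10 genes are autosomal.

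A snoRNA host gene is transcribed by RNA polymerase II, and its introns carry snoRNAs that are trimmed out of the excised intron and protected by proteins. Box C/D snoRNAs guide 2′-O-methylation, and box H/ACA snoRNAs guide pseudouridylation, mainly of ribosomal RNA. The spliced exons of these hosts hold short open reading frames, and several hosts are known substrates of nonsense-mediated mRNA decay, the pathway that degrades RNAs on which translation stops upstream of an exon junction. Smg6 is the endonuclease of that pathway, which cuts the RNA near the stop codon.

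The study compared mouse embryonic stem (ES) cells that were normal, with the genotype wild type, with ES cells deficient in Smg6. Each group had 2 libraries, numbered as replicates 1 and 2. The labels give neither the allele nor the clone, and do not say whether the replicates were separate cultures, so the tests weigh the groups against a spread between libraries that may be technical. Total counts ran from 130888768 to 155391181 per library.

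Counts over Smg6 itself were 13396 and 14071 in normal cells and 13366 and 11642 in Smg6-deficient cells, a log2 fold change of -0.21 (SE 0.083) with an edgeR adjusted p of 0.089. Smg6 was called lower in 4 of 16 other settings: with library size alone (-0.27, adjusted p 0.044), with a length correction alone (-0.38, 0.0077) or together with the replicate block (-0.38, 0.0024), and without normal replicate 1 (-0.26, 0.0147). The altered part of the gene is not given in the sources used here, so whole-gene counts do not check the genotype. Cell-state markers were read in the same fit, in which 39.7% of all tested genes were called. Of 15 endoderm markers, 14 were called higher and 1 lower, and their summed level was 1180 and 1034 CPM (counts scaled by library size) in normal cells and 3291 and 4777 CPM in Smg6-deficient cells. Of 12 pluripotent cell markers, 2 were called higher and 7 lower, with summed levels of 6241 and 5339 CPM against 4180 and 4112 CPM. Of 12 fibroblast markers, 3 were called, each of them higher, or 25%, with summed levels of 1078 and 798.1 CPM against 1323 and 1208 CPM. Among these, Col1a1 lost its call in 9 of 16 other settings, without Smg6-deficient replicate 1 among them (adjusted p 0.116), and Col5a2 in 10, without either Smg6-deficient replicate or normal replicate 2 among them (0.113, 0.0604 and 0.0526). No marker of these lists was at 0 in any library, and the lowest pluripotent marker count was 15243. Some fibroblast and endoderm markers were also high, with lowest counts of 43524 for Col1a1 and 51773 for Sparc. These counts alone therefore do not settle which cell types the libraries held. Of 1040 X-linked genes tested, 37 were called higher and 590 lower, and the median was -0.76 on the log2 scale against 0.031 for autosomal genes. The part of these differences in the results for the host genes was not tested.

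All 29 snoRNA genes annotated inside the 10 hosts on the same strand lie wholly within introns of the host transcript with the most exons. Most of them also overlap annotated exons of other transcripts of the host. In Zfas1 the shared stretches are 93, 89 and 90 bases, and in Epb41l4aos 0. How reads in such stretches were assigned is not given in the sources used here. Counts of host and snoRNA gene may therefore not be fully separate. Of the 29, Gas5 holds 10, Snhg12 holds 5, Zfas1 and Snhg17 hold 3 each, and Snhg3 and Snhg11 hold 2 each. The remaining hosts hold 1 each. Gas5 and Snhg12 each include 2 overlapping annotations of 1 snoRNA, Snord80 and Snora16a. The snoRNAs of Zfas1 and Snhg12 are printed because the counts of these hosts and of their snoRNA genes went apart in the data. They are given 5′ to 3′ from the GENCODE M21 transcripts (GRCm38, the assembly that mm10 names). Capitals mark the C box core TGATGA and the D box CTGA of box C/D snoRNAs, or the ACA box near the 3′ end of box H/ACA snoRNAs. Zfas1 carries 3 box C/D snoRNAs: Gm25878 at chr2:167063473-167063565, Gm23201 at chr2:167064998-167065086 and Snord12 at chr2:167065276-167065365, all on the plus strand.
Gm25878: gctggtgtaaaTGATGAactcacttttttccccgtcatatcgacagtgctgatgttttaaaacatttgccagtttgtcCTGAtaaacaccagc
Gm23201: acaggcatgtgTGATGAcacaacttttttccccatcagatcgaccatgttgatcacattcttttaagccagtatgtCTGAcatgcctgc
Snord12: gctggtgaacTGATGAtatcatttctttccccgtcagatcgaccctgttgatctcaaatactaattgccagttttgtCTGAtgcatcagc
Snhg12 carries both kinds. Its 4 snoRNA genes in the files lie on the plus strand: Snora16a at chr4:132309465-132309600, Snora44 at chr4:132309941-132310069, Snora61 at chr4:132310240-132310369 and Snord99 at chr4:132310691-132310764. Snora16a and Snora61 are box H/ACA and Snord99 is box C/D, while no such box was found at the ends of the annotated Snora44, an H/ACA snoRNA by its name.
Snora16a: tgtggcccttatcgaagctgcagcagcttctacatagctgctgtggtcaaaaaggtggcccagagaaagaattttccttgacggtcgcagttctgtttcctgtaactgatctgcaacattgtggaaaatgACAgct
Snora44: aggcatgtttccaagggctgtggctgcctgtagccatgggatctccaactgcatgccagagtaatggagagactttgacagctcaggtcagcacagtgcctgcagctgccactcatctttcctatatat
Snora61: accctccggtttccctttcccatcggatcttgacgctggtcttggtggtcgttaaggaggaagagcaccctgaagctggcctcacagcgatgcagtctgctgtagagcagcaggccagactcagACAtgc
Snord99: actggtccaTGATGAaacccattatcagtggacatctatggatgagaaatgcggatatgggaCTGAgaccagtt

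The exons of the hosts were read for the frame that starts at the first ATG of each annotated transcript. Decay depends on where translation stops relative to the exon junctions. In the 5-exon form of Zfas1 that frame is 54 nt long, its genomic ends are chr2:167063005-167063058 on the plus strand, and the last exon junction lies 437 nt after its stop. In the form of Snhg12 with most exons, also 5, the frame is 165 nt long at chr4:132308715-132308879 on the plus strand, with the last junction 213 nt after the stop. In the 12-exon form of Gas5 it is 72 nt long, its ends lie at chr1:161035754-161036003 on the plus strand across an intron, and 9 junctions follow the stop, the last 315 nt away. In the 4-exon form of Snhg3 the frame is 129 nt long, its ends lie at chr4:132352212-132353657 on the minus strand, and 1 junction follows, 90 nt after the stop. Capitals mark the start and stop codons.
Zfas1: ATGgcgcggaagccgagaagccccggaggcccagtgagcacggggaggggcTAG
Snhg12: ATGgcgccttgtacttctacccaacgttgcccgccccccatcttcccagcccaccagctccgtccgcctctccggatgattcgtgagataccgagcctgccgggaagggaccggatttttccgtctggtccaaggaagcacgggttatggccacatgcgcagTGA
Gas5: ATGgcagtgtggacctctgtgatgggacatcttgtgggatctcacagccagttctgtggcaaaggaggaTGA
Snhg3: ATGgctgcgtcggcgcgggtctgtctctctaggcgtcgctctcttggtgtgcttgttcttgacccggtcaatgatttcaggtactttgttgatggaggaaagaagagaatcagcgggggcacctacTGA
Over the 10 hosts, 58 of 71 multi-exon transcripts (81.7%) had an exon junction more than 50 nt after the stop of this frame. Among 14315 multi-exon transcripts of other long non-coding genes the share was 72.3%. Transcripts of 1 gene are not independent, and Gas5 alone holds 25 of the 71. The 71 include retained-intron forms: 20 of Gas5, 4 of Zfas1, 2 of Snhg11 and 2 of Snhg17. The frame was therefore not always read from fully spliced RNA. By host, the layout was found in 5 of 5 transcripts of Zfas1, 2 of 2 of Epb41l4aos and 9 of 10 of Snhg12. It was found in 3 of 4 of Snhg15, 6 of 8 of Snhg17, 24 of 25 of Gas5 and 4 of 5 of Snhg11. For Snhg3 it was 2 of 5, for Snhg20 3 of 6 and for Snhg9 0 of 1. Whether these frames are translated was not measured, and their part in the host values was not tested.

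**Figure D1:**
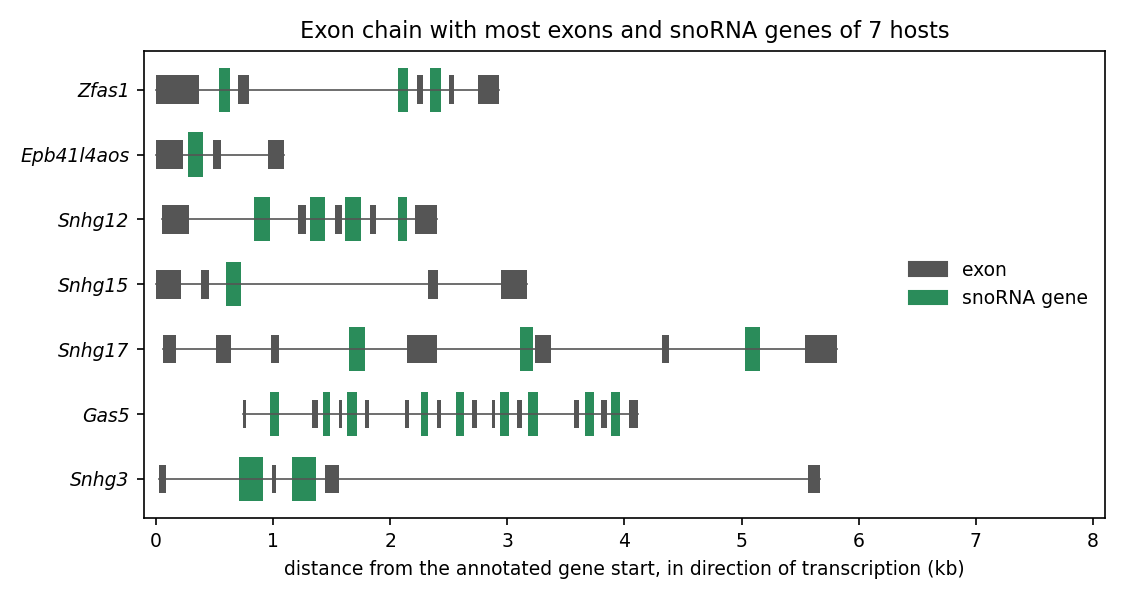
Exon chain with the most exons (grey boxes) and snoRNA genes (green boxes) of 7 host genes, to scale, by distance from the annotated gene start in kb. Every snoRNA gene shown falls in an intron, with 3 in Zfas1, 5 in Snhg12 and 10 in Gas5. Snhg12 and Gas5 each include 2 overlapping annotations, of Snora16a and of Snord80.

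Zfas1, Epb41l4aos, Snhg12, Snhg15 and Snhg17 were called higher in the Smg6-deficient libraries, with log2 fold changes from 0.57 to 2.78, and Snhg3 and Snhg20 were called lower, at -0.32 and -0.43. A call means an adjusted p under 0.05 in edgeR. Thus 5 of the 10 hosts were called higher and 2 lower, all 10 having passed the count filter. Over all 20895 genes tested, 20.5% were called higher, 19.2% lower and 39.7% in either direction, so a call as such was frequent in this comparison. The groups did not overlap, higher in the Smg6-deficient libraries for 6 hosts and lower for 3, while 37.3% of all genes were apart in the higher and 35.9% in the lower direction. The median log2 fold change of the 10 hosts was 0.41, and that of all genes was 0.0080. Calls with a log2 fold change of at least 2 made up 0.981% of all genes, and Zfas1 and Epb41l4aos were among them. Together the 10 hosts took 0.0407% and 0.0463% of all counts in normal cells and 0.0943% and 0.101% in Smg6-deficient cells. The 5 higher calls were kept in all 16 other settings tried, whereas the number of lower calls ranged from 0 to 3.

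**Figure D2:**
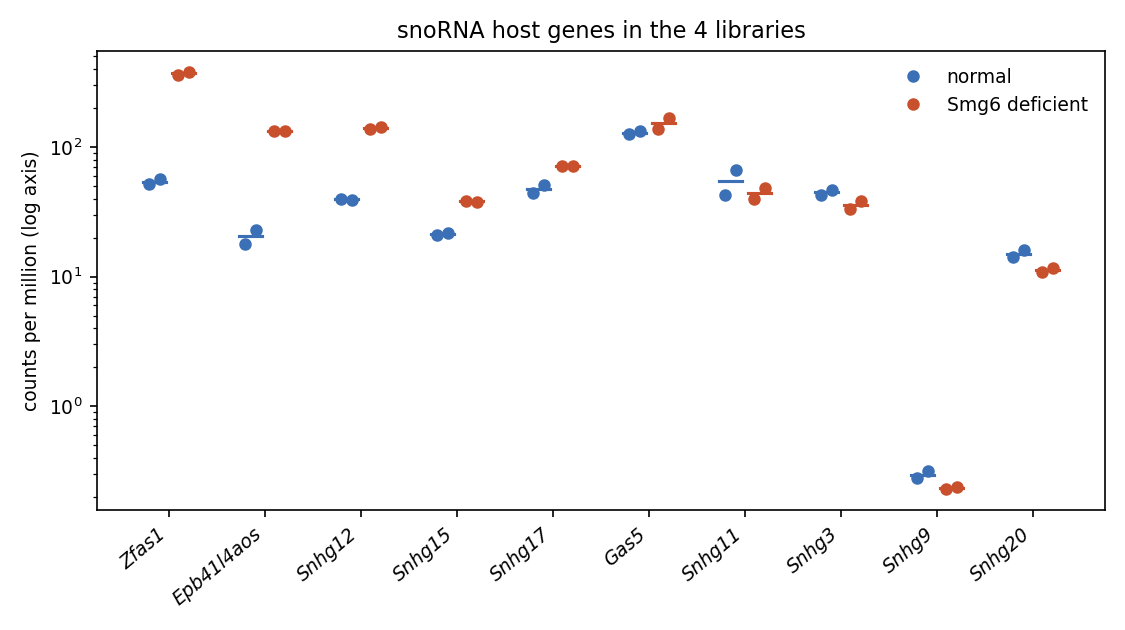
Level of the 10 host genes in CPM (log axis) in each of the 2 normal (blue) and 2 Smg6-deficient (orange) libraries; horizontal lines are group means. Zfas1 went from 53.9 to 369.8 CPM, Epb41l4aos from 20.5 to 132.8 CPM and Snhg12 from 39.6 to 140.8 CPM, while the points of the 2 groups overlap for Snhg11.

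**Figure D3:**
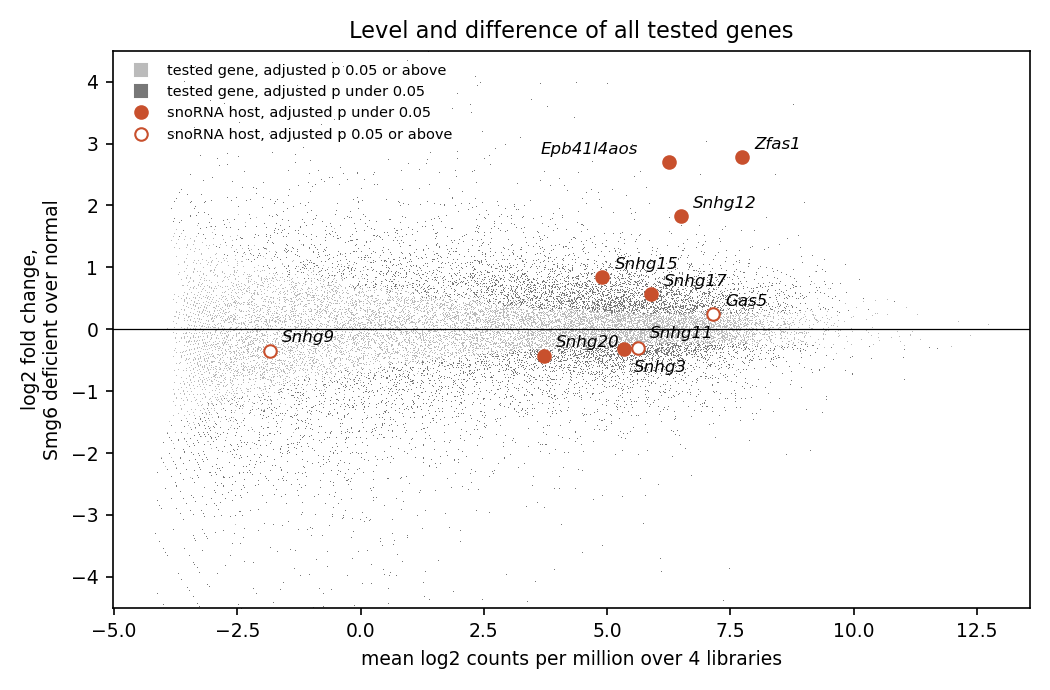
Mean log2 CPM over the 4 libraries (x axis) and log2 fold change, Smg6-deficient over normal (y axis), of all tested genes, with the 10 hosts in orange, filled where the adjusted p was under 0.05. Zfas1, Epb41l4aos and Snhg12 rank 68, 75 and 256 of 20895 genes by log2 fold change. Some genes at a similar level lie higher, such as Lrp2 at 3.02. The y axis leaves out 109 genes.

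Of the 5, Zfas1, Epb41l4aos and Snhg12 stood far higher. Zfas1, at chr2:167062934-167065862 on the plus strand, which starts head to head with Znfx1 on the opposite strand, had counts of 7219 and 7529 in normal cells and 54606 and 51526 in Smg6-deficient cells. This was 53.9 ± 3.32 CPM against 369.8 ± 16.7 CPM (SD, n = 2 each), a 6.86-fold difference. The log2 fold change of Zfas1 was 2.78 (SE 0.092, 95% confidence interval 2.56 to 2.998), with an adjusted p of 6.0e-05 from the quasi-likelihood test of edgeR, adjusted by Benjamini-Hochberg over 20895 genes. The 2 Smg6-deficient libraries were both far above the 2 normal ones, with little spread inside either group.

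Epb41l4aos, which lies at chr18:33794892-33795986 on the plus strand, rose to almost the same degree. Its counts were 2515 and 3075 in normal cells and 20378 and 17833 in Smg6-deficient cells, or 20.5 ± 3.54 CPM against 132.8 ± 1.06 CPM (SD, n = 2 each). The log2 fold change was 2.70 (SE 0.13, 95% interval 2.39 to 3.01; edgeR adjusted p 0.00012). The normal libraries differed more from each other for this gene, at 17.96 and 22.98 CPM, than the Smg6-deficient libraries did, at 133.6 and 132.1 CPM.

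Snhg12, at chr4:132308623-132311024 on the plus strand, had counts of 5585 and 5266 in normal cells and 21015 and 19420 in Smg6-deficient cells. Its level was 39.6 ± 0.385 CPM against 140.8 ± 4.30 CPM (SD, n = 2 each), and its log2 fold change was 1.83 (SE 0.079, 95% interval 1.64 to 2.02; edgeR adjusted p 9.5e-05). The groups were again clearly apart. Among all 20895 genes ordered by log2 fold change, Zfas1 ranked 68, Epb41l4aos 75 and Snhg12 256. A log2 fold change of at least that of Snhg12 was reached by 1.23% of all tested genes.

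Snhg15 and Snhg17 rose less. Snhg15, at chr11:6525591-6528760 on the minus strand, had counts of 2910 and 2909 in normal cells and 5860 and 5128 in Smg6-deficient cells. Its log2 fold change was 0.85 (SE 0.086; edgeR adjusted p 0.00079), from 21.3 ± 0.672 to 38.2 ± 0.306 CPM (SD, n = 2 each). Snhg17, at chr2:158353700-158361580 on the minus strand, had counts of 6231 and 6810 against 10818 and 9582. Its log2 fold change was 0.57 (SE 0.092; edgeR adjusted p 0.0039), from 47.7 ± 4.51 to 70.9 ± 0.0385 CPM (SD, n = 2 each). For both genes the lowest Smg6-deficient library was above the highest normal library.

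Gas5, a host named for its accumulation in growth-arrested cells and long used as a model substrate of nonsense-mediated decay, did not pass the test. Counts over Gas5, at chr1:161034422-161038539 on the plus strand, were 17535 and 17697 in normal cells and 21110 and 22632 in Smg6-deficient cells. The levels were 125.2 and 132.2 CPM against 138.4 and 167.6 CPM, so the groups did not overlap, while the Smg6-deficient libraries lay further from each other than the normal ones. The log2 fold change was 0.25 (SE 0.11, 95% interval -0.0083 to 0.51; edgeR adjusted p 0.11), an interval whose upper end lies below the lower end of that of Zfas1, Epb41l4aos, Snhg12 and Snhg15. Only the fit that adds the replicate number as a block called Gas5, at 0.24 (adjusted p 0.0461).

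The length implied by the deposited counts and RPKM values (reads scaled by gene length and library total) for Gas5 is 3760 bases, out of a gene span of 4118 bases. GENCODE M21 lists 20 of its 25 transcripts as retained-intron forms. A model of that length covers most of the intron sequence of Gas5, so spliced and intron-holding RNA cannot be told apart in its counts. The limit is not particular to Gas5. Implied lengths of Zfas1 and Snhg12, 1901 and 1626 bases, exceed the 738 and 606 bases of their 5-exon forms. Their counts may thus hold intron sequence too. For Epb41l4aos the implied length, 430 bases, equals that of its 3-exon form.

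Snhg3 and Snhg20 were called lower, by small amounts. Snhg3, the host of the snoRNAs Snora73a and Snora73b, had counts of 5982 and 6272 in normal cells and 5063 and 5208 in Smg6-deficient cells, at chr4:132348014-132353686 on the minus strand. Its log2 fold change was -0.32 (SE 0.11), at an edgeR adjusted p of 0.0497, just under the threshold of 0.05. The call was lost without Smg6-deficient replicate 1 (adjusted p 0.407), without Smg6-deficient replicate 2 (0.0693), without normal replicate 2 (0.064) and with a correction for gene length (0.157). Snhg3 shares exon sequence with Rcc1 on the same strand (135 bases) and with Gm17300 on the opposite strand (705 bases), and reads of these genes cannot be fully separated.

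Snhg20, at chr11:117076008-117078955 on the plus strand, had counts of 1972 and 2134 in normal cells and 1647 and 1562 in Smg6-deficient cells. The log2 fold change was -0.43 (SE 0.11; edgeR adjusted p 0.026). This call too was lost without Smg6-deficient replicate 1 (adjusted p 0.199), without Smg6-deficient replicate 2 (0.10) and with the length correction (0.0835).

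Snhg11 and Snhg9 did not pass. Snhg11, at chr2:158375638-158386145 on the plus strand, had 42.7 and 66.3 CPM in normal cells and 39.8 and 48.2 CPM in Smg6-deficient cells. Those groups overlapped, with normal replicate 2 alone at the top, and the log2 fold change was -0.31 (SE 0.20; edgeR adjusted p 0.27). It was -0.58 (adjusted p 0.0030) without normal replicate 1, and 0.023 without normal replicate 2. Snhg9, at chr17:24719531-24719965 on the minus strand, had only 39 and 42 counts against 35 and 32, and a log2 fold change of -0.34 (SE 0.30, 95% interval -1.05 to 0.36; edgeR adjusted p 0.39). At this depth a difference smaller than that interval was not detectable for Snhg9.

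The hosts were also set in order of level per length with the deposited RPKM values. In the normal libraries Epb41l4aos was first, at 37.1 and 44.6 RPKM, and overlapped with Snhg3, at 38.5 and 39.7 RPKM. Gas5 followed at 29.6 and 29.3 RPKM, then Zfas1 at 24.1 and 24.7 RPKM and Snhg12 at 21.8 and 20.2 RPKM. Snhg20, Snhg15, Snhg17, Snhg11 and Snhg9 came after, down to a mean of 1.39 RPKM for Snhg9. Apart from Epb41l4aos and Snhg3, no neighbours in this order had overlapping values.

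In the Smg6-deficient libraries the order changed at the top, and Snhg20 moved from rank 6 to rank 8, behind Snhg15 and Snhg17. Epb41l4aos stayed first at 266.2 and 249.6 RPKM, Zfas1 moved from rank 4 to rank 2 at 161.4 and 163.1 RPKM, and Snhg12 from rank 5 to rank 3 at 72.6 and 71.9 RPKM. Gas5, at 31.5 and 36.2 RPKM, and Snhg3, at 28.8 and 31.8 RPKM, overlapped there. Levels per length rest on the authors' gene models, whose implied lengths were within 1% of the GENCODE M21 exon total for 6 hosts and smaller for 4: Zfas1 (1901 against 2929 bases), Snhg12 (1626 against 2402), Snhg17 (4644 against 7052) and Snhg20 (848 against 2795).

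For the 5 hosts called higher, the counts of the snoRNA genes inside them did not rise to the degree of the host. Of 27 snoRNA genes in the files that lie inside the 10 hosts, 25 passed the count filter. Of these, edgeR called 0 higher and 0 lower, with 3 at an unadjusted p under 0.05. The DESeq2 Wald test called 1 and limma-voom 0. Their median log2 fold change was -0.079, with a range of -0.71 to 0.52. Of all 243 snoRNA genes tested, 3.29% were called, 2 higher and 6 lower, and their median was 0.0017. The library preparation yields fragments from whole transcripts, so reads over a snoRNA gene have several possible sources. They can come from the snoRNA, its precursor or an RNA that kept the intron, and these cannot be told apart. All snoRNA gene rows together took 0.0154% to 0.0204% of the counts of a library. These counts therefore do not measure the amount of the snoRNAs themselves.

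For Zfas1, the summed counts of Gm25878, Gm23201 and Snord12 were 374 and 379 in normal cells and 365 and 379 in Smg6-deficient cells. That is a log2 fold change of -0.083 (95% interval -0.49 to 0.32; edgeR adjusted p 0.72), beside 2.78 for the host. Per 1000 host counts there were 51.8 and 50.3 snoRNA-gene counts in normal cells and 6.68 and 7.36 in Smg6-deficient cells. None of the 3 snoRNA genes was called. Snord12, the most counted, had 229 and 214 counts against 205 and 230. The groups did not overlap for Gm25878, higher at 0.16 (edgeR adjusted p 0.64), and for Gm23201, lower at -0.26 (0.43). Over all genes, 37.3% were apart in the higher and 35.9% in the lower direction.

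For Snhg12, the 4 snoRNA genes in the files summed to 751 and 652 counts in normal cells and 848 and 835 in Smg6-deficient cells. The log2 fold change of this sum was 0.20 (95% interval -0.13 to 0.53; edgeR adjusted p 0.30), and the counts per 1000 host counts went from 134.5 and 123.8 to 40.4 and 43.0. Snora61 accounted for the most of them, with 444 and 389 counts against 485 and 471. For Epb41l4aos, its snoRNA gene Gm23639 had 75 and 73 counts against 111 and 111, a log2 fold change of 0.52 (95% interval -0.034 to 1.07; edgeR adjusted p 0.12). On the log2(RPKM + 1) scale limma called it higher, at 0.38 (adjusted p 0.0441), and on the log2(RPKM + 0.1) scale at 0.46 (0.0364). These groups did not overlap, and the upper end of the interval lay below 2.39, the lower end for the host.

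Snhg15 and Snhg17 showed the same gap on a smaller scale. The sum for Snhg15 (Snora9) was 90 and 74 counts against 71 and 84, a log2 fold change of -0.14 (95% interval -0.78 to 0.50) beside a host interval of 0.64 to 1.05. The 3 snoRNA genes of Snhg17 summed to 328 and 387 counts against 373 and 309, a log2 fold change of -0.14 (95% interval -0.58 to 0.29) beside a host interval of 0.35 to 0.79. Thus the intervals of host and snoRNA sum did not overlap for any of the 5 hosts called higher. An exact permutation test (two-sided) of the ratio of snoRNA-gene to host counts gave p = 0.333 for each of these 5 hosts. The same test gave 0.333 for Gas5, Snhg3 and Snhg9 too, and 0.667 for Snhg20. Since 0.333 is the smallest value that 2 libraries against 2 allow, the test does not set the 5 hosts apart.

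In Gas5 the 9 snoRNA genes in the files, 1 of them named Mir5117 in the annotation, summed to 1670 and 1580 counts in normal cells and 1315 and 1505 in Smg6-deficient cells. The log2 fold change was -0.26 (95% interval -0.61 to 0.082; edgeR adjusted p 0.19), and its interval overlapped that of the host. Snord78, at 396 and 348 counts against 242 and 283, had the smallest adjusted p among them, with a log2 fold change of -0.56 (SE 0.20; edgeR adjusted p 0.063). Snord78 was called lower in 7 of 16 other settings, one of them without normal replicate 2 (adjusted p 0.0325), and its adjusted p reached 0.426 in the others. Gm25789, at 208 and 174 counts against 107 and 141, had a log2 fold change of -0.68 (SE 0.25; edgeR adjusted p 0.075) and was called with the replicate block (adjusted p 0.0396) and without normal replicate 2 (0.038). Both were singled out after their values were seen. For Snhg3, Snora73a and Snora73b summed to 1819 and 2299 counts against 1896 and 2293, a log2 fold change of -0.037 (95% interval -0.49 to 0.42). That interval overlapped the host interval of -0.57 to -0.070. The snoRNA gene of Snhg20 had a log2 fold change of -0.27 (95% interval -0.96 to 0.41), overlapping the host interval of -0.70 to -0.15. That of Snhg9 had 0.28 (95% interval -0.43 to 0.99), overlapping the host interval of -1.05 to 0.36.

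Some hosts were not analysed here while their snoRNA genes were present. The 8 snoRNA genes of Snhg1 in the files summed to 1221 and 1330 counts in normal cells and 1216 and 1222 in Smg6-deficient cells, a log2 fold change of -0.13 (95% interval -0.45 to 0.18; edgeR adjusted p 0.45). Those of Snhg6, Snhg8 and Snhg10, 1 gene each, did not pass either, with log2 fold changes of 0.53, -0.060 and 0.22.

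**Figure D4:**
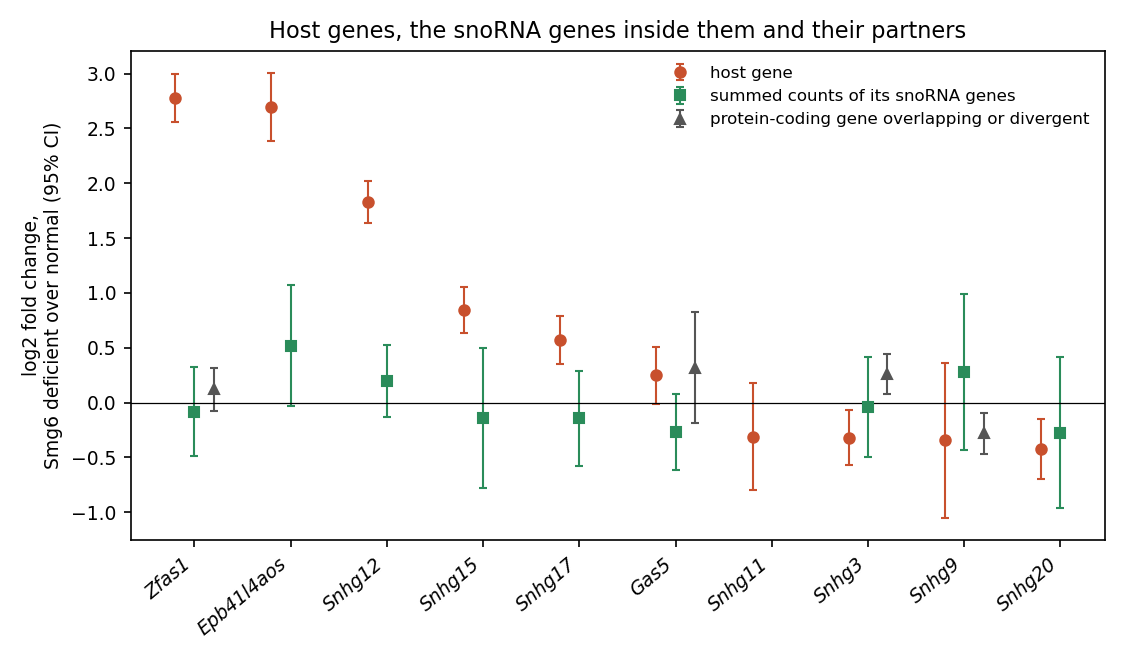
Log2 fold change, Smg6-deficient over normal, with its 95% confidence interval for each host (orange circles), the summed counts of the snoRNA genes inside it (green squares) and the protein-coding gene that overlaps it or starts head to head with it (grey triangles). The squares lie between -0.27 and 0.52, also where the host is at 2.78, 2.70 or 1.83; no sum was tested for Snhg11.

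**Figure D5:**
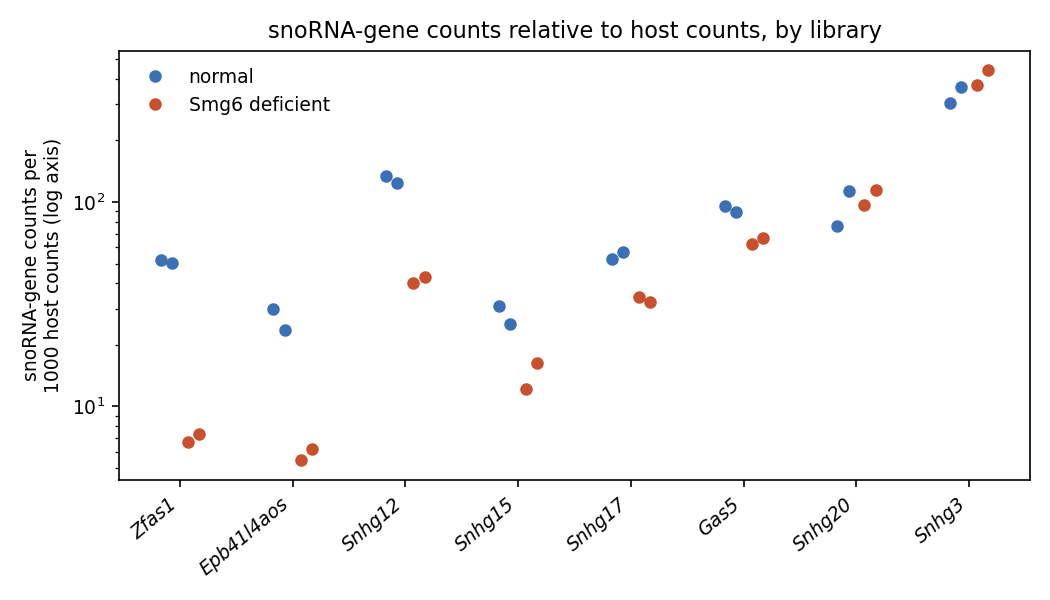
Counts of snoRNA genes per 1000 counts of their host (log axis) in each normal (blue) and Smg6-deficient (orange) library for 8 hosts. The Smg6-deficient points lie below the normal ones for Zfas1, Epb41l4aos, Snhg12, Snhg15, Snhg17 and Gas5, with 51.8 and 50.3 against 6.68 and 7.36 for Zfas1.

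Genes that share the hosts' starts were followed as well. Znfx1, a zinc finger helicase gene on the opposite strand, starts 81 bases from Zfas1 and shares 82 exonic bases with it. Its counts were 7291 and 7369 in normal cells and 9171 and 7630 in Smg6-deficient cells, a log2 fold change of 0.12 (95% interval -0.075 to 0.32; edgeR adjusted p 0.28). The interval for Znfx1 lay wholly below that of Zfas1. The library kit does not mark strand, but the shared stretch is short beside either gene.

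Zbtb37, which starts 427 bases from Gas5 on the opposite strand, had a log2 fold change of 0.32 (SE 0.21; edgeR adjusted p 0.27), with overlapping groups. It was 0.69 (adjusted p 0.0015) without normal replicate 2, and 0.36 (adjusted p 0.0465) with the replicate block. Slc3a2, the transporter subunit gene that starts 106 bases from Snhg1, had a log2 fold change of 0.081 (SE 0.12; edgeR adjusted p 0.61). Mcmdc2, which overlaps Snhg6, had -0.39 (SE 0.13; edgeR adjusted p 0.055) and was called lower in 9 of 16 other settings. Glrx5, which starts 409 bases from Snhg10, had -0.20 (SE 0.092; edgeR adjusted p 0.12), and was called without normal replicate 2 (adjusted p 0.0249). Sema5a, which starts 148 bases from Snhg18, had 0.26 (SE 0.19; edgeR adjusted p 0.32), and was called without normal replicate 1 (0.55, adjusted p 0.0131). Rcc1, which encodes the exchange factor of the GTPase Ran and shares exon sequence with Snhg3, was called higher at 0.26 (SE 0.077; edgeR adjusted p 0.036), opposite in sign to Snhg3. This call was lost in 10 of 16 other settings, among them those without Smg6-deficient replicate 1 (adjusted p 0.18) or 2 (0.295). Gm17300, antisense to Snhg3, had -0.23 (SE 0.11; edgeR adjusted p 0.13), and was called with the replicate block (adjusted p 0.0486).

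Rps2, the ribosomal protein gene that overlaps Snhg9 on the opposite strand, was called lower at -0.28 (SE 0.079; edgeR adjusted p 0.031). It lost the call in 5 of 16 other settings, among them those without Smg6-deficient replicate 1 (adjusted p 0.226) or 2 (0.287). Snora64, a snoRNA gene inside the Rps2 locus whose start lies 807 bases from that of Snhg9, was called higher at 0.73 (SE 0.19; edgeR adjusted p 0.025), from 195 and 230 counts to 366 and 371. That call too was lost without Smg6-deficient replicate 1 (adjusted p 0.0565) or 2 (0.153).

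The starts of the hosts were read in the RefSeq promoter table (GRCm38.p6), because many snoRNA hosts begin with a pyrimidine tract, the feature of terminal oligopyrimidine RNAs. The search was for the longest unbroken run of C or T on the transcribed strand within 20 bases either side of the start, and 9 of the 10 hosts, with 11 starts, were read. A run of at least 8 was found at 2 of the 11 starts, Snhg12 and Snhg9, and at 16% of all 32851 promoters. The windows from 50 bases before to 50 bases after the start are shown for Snhg12 (chr4:132308628-132308727, plus strand), the downstream start of Gas5 (chr1:161035116-161035215, plus strand) and Zfas1 (chr2:167062884-167062983, plus strand), with that run in capitals.
Snhg12: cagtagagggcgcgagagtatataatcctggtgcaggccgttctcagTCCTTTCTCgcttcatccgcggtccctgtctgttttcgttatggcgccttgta
Gas5: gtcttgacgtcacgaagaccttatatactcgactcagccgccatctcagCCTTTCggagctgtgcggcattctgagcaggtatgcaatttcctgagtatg
Zfas1: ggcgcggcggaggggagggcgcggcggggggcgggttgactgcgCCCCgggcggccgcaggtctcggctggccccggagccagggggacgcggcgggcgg
The run was 9 bases in Snhg12, 6 in Gas5 and 4 in Zfas1. Its first base lay at position -3 from the start in Snhg12, -1 in Gas5 and -6 in Zfas1. Snhg9 had a run of 9 bases from position -9. In Zfas1 and Snhg9 the run thus ended before the annotated start. The part of such runs in the log2 fold changes was not tested.

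Other snoRNA hosts were taken from the annotation. Of 55 further non-coding genes that hold a snoRNA gene, 20 were in the files and 10 were tested, with a median log2 fold change of 0.13. Of these 10, 3 were called higher and 1 lower, or 40%, beside 39.7% of all tested genes. The 3 were 2410006H16Rik at 2.50 (SE 0.17), 1110038B12Rik at 1.66 (SE 0.076) and 1810032O08Rik at 1.06 (SE 0.084), with edgeR adjusted p of 0.00025, 0.00011 and 0.00035. Counts over 2410006H16Rik were 11813 and 16016 in normal cells and 87779 and 77878 in Smg6-deficient cells. The gene called lower, Gm11775, averaged 0.187 CPM in the normal libraries, and it was named after its values were seen.

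Of 253 protein-coding hosts tested, 85 were called higher and 45 lower, or 51.4% beside 39.7% of all tested genes, with a median of 0.12. Taf1d, a subunit of the RNA polymerase I factor SL1, was higher at 2.04 (SE 0.088; edgeR adjusted p 9.5e-05), from 10267 and 9783 counts to 43463 and 42652. Alkbh1, a nucleic acid demethylase gene, was higher at 1.44 (SE 0.080), and Lrch2, which is X-linked, was lower at -2.27 (SE 0.096), with edgeR adjusted p of 0.00016 and 9.5e-05.

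Genes of the decay pathway and of snoRNA particles were read from the same fit. Of 13 genes of nonsense-mediated decay, 9 were called higher and 2 lower, or 84.6% beside 39.7% of all tested genes, with a median of 0.41. Smg9, a partner of the kinase Smg1, rose by 0.99 (SE 0.10) and Smg5, which binds phosphorylated Upf1, by 0.72 (SE 0.094), while Upf3b, an exon junction reader that is X-linked, was lower at -0.80 (SE 0.083). The edgeR adjusted p were 0.00081, 0.0018 and 0.00081.

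Of 8 core proteins of snoRNA particles, 1 was called higher and 2 lower, with a median of 0.036. That is 37.5% called, beside 39.7% of all tested genes. Nop56, a box C/D core protein, was higher at 0.92 (SE 0.084; edgeR adjusted p 0.00055). The box H/ACA proteins Dkc1, the pseudouridine synthase, which is X-linked, and Nop10 were lower at -0.49 (SE 0.081) and -0.39 (SE 0.083), with edgeR adjusted p of 0.0044 and 0.011. Dkc1 lost its call without Smg6-deficient replicate 1 (adjusted p 0.0606) and Nop10 without Smg6-deficient replicate 2 (0.161). Of 13 assembly factors, 4 were called, each of them higher, or 30.8%, beside 20.5% of all tested genes called higher. The median of the 13 was -0.077, and the highest-ranked were Naf1 at 0.71, Ruvbl2 at 0.68 and Pih1d1 at 0.65.

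Of 75 cytosolic ribosomal protein genes, many of which share the terminal pyrimidine tract of snoRNA hosts, 5 were called higher and 23 lower. That is 37.3% called, beside 39.7% of all tested genes, with a median of -0.16. Rpl39 and Rps4x, both X-linked, were lower at -1.33 (SE 0.091) and -0.96 (SE 0.078), and Rpl10l at -1.30 (SE 0.17). Ribosomal protein genes have many near-identical copies, and how the authors counted reads with several alignments is not given in the sources used here, so these values are uncertain.

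The genes most like Zfas1 across the 4 libraries were found by the Euclidean distance between centred log2 CPM values (prior count 2). The nearest genes outside the 10 hosts were Insm1 at 0.228, Nlrc4 at 0.230, Lrp2 at 0.262, Gkn2 at 0.262 and 2610307P16Rik at 0.287. Among the hosts, Epb41l4aos was nearest at 0.193 and Snhg12 next at 0.956. Gkn2 rested on 0 counts in both normal libraries and 15 and 11 in Smg6-deficient cells. With 4 libraries in 2 groups, such a distance mostly describes the size of the group difference. Lrp2, the endocytic receptor megalin, was the most highly expressed of the 5, with 27.2 and 29.3 CPM against 208.8 and 249.1 CPM.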

How the data were processed

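RNA was extracted with TRIzol and made into TruSeq v2 libraries, which do not mark strand, and read as single 50-nt reads, per the labels' protocols. The submitters' processing notes name TopHat2 2.0.9 and the build mm10; which counter and annotation release were used, and what was done with multiply aligned reads, is not given in the sources used here. The authors deposited per gene and library a raw count of reads and an RPKM value, with no columns of other samples (0). Libraries of a group differed beyond sampling noise (chi-square divided by its degrees of freedom, 74.3 and 42).

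Symbols, positions and snoRNA genes came from GENCODE M21, which named 35449 of the identifiers (95.2%). The 20895 genes that passed filterByExpr at a minimum count of 10 entered a quasi-likelihood fit in edgeR 4.0.16 (R 4.3.3) with TMM factors and no covariate beside genotype, and p-values were adjusted by Benjamini-Hochberg, at a threshold of 0.05. CPM use the TMM-scaled totals. Standard errors were derived from the F statistic, as the size of the log2 fold change over its square root, and intervals use the moderated degrees of freedom. The step was tested on data simulated from its own fitted spread, which does not test whether that spread holds for these libraries. Sums of snoRNA-gene counts per host were added as further genes to the same fit, an addition made after the data were seen. The deposited RPKM served for levels per length and, as log2(RPKM + 1) and log2(RPKM + 0.1) in limma 3.58.1, as alternatives; DESeq2 1.42.0 was another.

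The named genes were every host, each gene that overlaps one or starts within 1000 bases on the opposite strand, Smg6, up to 3 called genes with the smallest adjusted p per list, and the 5 genes nearest to Zfas1. The hosts and lists were chosen with earlier results of these data known. Depth limits the precision of low genes; intervals cover these libraries only.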

Additional observations from a re-analysis of the deposited data

How the results depend on the processing

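Zfas1, Epb41l4aos, Snhg12, Snhg15 and Snhg17 kept their direction and call in all 16 other settings, with ranges of 2.68 to 2.83, 2.54 to 2.92, 1.74 to 1.87, 0.76 to 0.91 and 0.49 to 0.65 on the log2 scale. The number of hosts called lower was 1 with no count filter, 0 with the gene length correction and 1 with length correction and replicate block together; leaving out 1 library at a time gave 0 to 3. The cause was not tested. The median of the hosts was 0.53 when 50 counts in 2 libraries were asked for, which removed Snhg9, and 0.35 to 0.49 when libraries were left out. Over all genes, log2(RPKM + 1) and log2(RPKM + 0.1) called 2700 and 2643 genes higher, and leaving out 1 library gave 2805 to 5578 higher and 2300 to 4899 lower. Replicate numbers share no stated source, and same-numbered libraries deviated together with a correlation of 0.155. With the replicate block, 5074 genes were higher and 4613 lower, and Gas5 (0.24) and Snhg11 (-0.28, adjusted p 0.0401) were called. Snhg11 was also called lower without normal replicate 1 (-0.58) and with length correction and block (-0.46), and stood at 0.023, uncalled, without normal replicate 2. The sums of snoRNA-gene counts stayed uncalled in all 14 settings run for them, and single snoRNA genes inside the hosts gave 0 to 3 calls. Depth limited Snhg9 and the rarer snoRNA genes.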
